A study of Homo sapiens with 27 samples.

Results

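Ribosome biogenesis factors are the proteins that transcribe, modify, cut and fold ribosomal RNA and assemble it with ribosomal proteins. Here 38 genes of this kind, taken by gene symbol from the 26255 symbols measured in each library, were followed in HCT116, SW480 and DLD-1, 3 established human colorectal cancer (CRC) cell lines. Each line was sequenced as cells resistant to fluorouracil (5-FU res), cells resistant to oxaliplatin (OX res) and untreated cells (WT), with 3 libraries a group and 27 in all. Per the labels, resistant cells had been grown for about 6 months in non-lethal drug, at 5 to 70 µM 5-FU or 5 to 35 µM OX. The labels name no other treatment and no genetic change. The study's paper describes making and testing resistant cells of HCT116 and SW480 only, so the resistance of the DLD-1 groups rests on the labels. No source states if the 3 libraries of a group were separate cultures, and the p-values therefore cover the spread between libraries alone, which could be technical.

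In the nucleolus, RNA polymerase I makes a long precursor that holds the ribosomal RNAs of both subunits. Small nucleolar ribonucleoproteins (snoRNPs) of the box C/D class guide 2'-O-methylation of that precursor, the SSU processome and later factors release the small (40S) subunit, and a separate set of factors builds the large (60S) subunit. Cells that grow and divide fast make many ribosomes, and MYC is known as an activator of many of these genes. Both drugs are known to act on this pathway, since 5-FU metabolites are built into ribosomal RNA and disturb its processing, and oxaliplatin inhibits ribosomal RNA synthesis and disrupts the nucleolus.

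Expression was analysed as TPM, which is the deposited FPKM of a gene scaled so that every library has the same sum. All 38 members were far from the detection limit, the lowest value in any library being 7.55 TPM. Their median mean level was 89.99 TPM in HCT116 WT, 82.1 TPM in SW480 WT and 66.9 TPM in DLD-1 WT. NPM1 alone made up 25.5% to 45.7% of the summed TPM of the members, and because it has many processed pseudogenes its level is uncertain where reads could be split. The same holds for PPAN, whose reads may be shared with the readthrough gene PPAN-P2RY11, and for the paralogs RRP1 and RRP1B. In bulk RNA, fewer transcripts per cell and a smaller share of total mRNA cannot be told apart.

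The number of reads per library is not given in the sources used here, but steps in the lowest FPKM put the depth of the libraries at 0.676 to 1.061 times that of HCT116 WT replicate 2. Across genes, libraries of a group correlated at 0.985 to 0.993. Of 12 markers of colorectal epithelium, 6 to 10 reached 1 TPM per group, KRT8, KRT18, KRT19, EPCAM and CDX2 among them in every line, while CDX1 stayed under 1 TPM in all groups and CDH17, LGALS4 and CEACAM5 stayed under 1 TPM in every HCT116 and SW480 group. Summed markers of other cell types were low in all groups, at up to 17.8 TPM for 7 fibroblast genes, 18.3 TPM for 6 leukocyte genes and 5.30 TPM for 5 endothelial genes. PTPRC, PECAM1, DCN and LUM stayed under 1 TPM in all groups, but other markers of these lists did not. COL1A1 and HLA-DRA averaged 16.2 and 14.4 TPM in HCT116 OX res, against 6.58 and 4.04 TPM in HCT116 WT. LYZ and CD14 averaged 6.61 and 4.47 TPM in SW480 5-FU res, against 1.53 and 1.17 TPM in SW480 WT. CLDN5 averaged 2.41 TPM in DLD-1 OX res and 1.58 TPM in DLD-1 WT. In HCT116 5-FU res HLA-DRA was lower, at 1.85 TPM. Library names place DLD-1 in another number series, so differences between DLD-1 and the other lines cannot be told apart from that series.

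The promoters of 31 of the 38 members were found in the RefSeq table (GRCh38.p14), and the 250 bases before each start were searched on both strands for CACGTG, the E-box that MYC and MAX bind among others, and for CCGGAAG, a core bound by ETS factors. At least 1 start carried CACGTG in 4 members (12.9%), beside 9.73% of 15842 protein-coding genes. CCGGAAG was found in 13 members (41.9%), beside 14% of protein-coding genes. These matches describe the letters in the window and not binding. The windows of 4 members with a match and large changes in the comparisons that follow are shown, and the capitals mark the matches. These are not the 4 that moved most. LYAR, not shown, held the E-box at -64 from a start and changed by -2.25 in SW480 5-FU res. NOP14, NOP56, NPM1, PES1, RRP1 and POLR1A, whose values are also given below, had neither motif in their windows. FBL lies at chr19:39846380-39846629 on the minus strand and NOP16 at chr5:176388599-176388848 on the minus strand, both with the ETS core, which in NOP16 reads on both strands in 1 overlapping run. EBNA1BP2 lies at chr1:43172571-43172820 on the minus strand and UTP20 at chr12:101279855-101280104 on the plus strand, both with the E-box, which starts 10 bases before the UTP20 start. The window of the other EBNA1BP2 start, at chr1:43172291-43172540 and not shown, held no E-box but the ETS core at -47 and -28 from that start.
FBL: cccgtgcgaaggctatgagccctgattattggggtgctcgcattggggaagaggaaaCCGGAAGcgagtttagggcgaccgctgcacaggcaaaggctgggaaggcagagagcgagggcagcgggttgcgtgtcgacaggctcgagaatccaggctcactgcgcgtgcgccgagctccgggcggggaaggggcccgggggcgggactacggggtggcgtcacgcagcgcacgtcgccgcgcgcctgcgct
NOP16: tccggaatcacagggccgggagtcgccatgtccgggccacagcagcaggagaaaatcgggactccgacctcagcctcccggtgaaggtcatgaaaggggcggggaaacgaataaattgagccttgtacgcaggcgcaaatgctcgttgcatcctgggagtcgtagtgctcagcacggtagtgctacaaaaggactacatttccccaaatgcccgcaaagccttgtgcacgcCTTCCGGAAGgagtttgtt
EBNA1BP2: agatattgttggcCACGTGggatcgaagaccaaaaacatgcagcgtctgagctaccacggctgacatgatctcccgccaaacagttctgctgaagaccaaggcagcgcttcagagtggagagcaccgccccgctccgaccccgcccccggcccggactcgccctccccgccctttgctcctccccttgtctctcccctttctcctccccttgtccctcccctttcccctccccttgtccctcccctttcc
UTP20: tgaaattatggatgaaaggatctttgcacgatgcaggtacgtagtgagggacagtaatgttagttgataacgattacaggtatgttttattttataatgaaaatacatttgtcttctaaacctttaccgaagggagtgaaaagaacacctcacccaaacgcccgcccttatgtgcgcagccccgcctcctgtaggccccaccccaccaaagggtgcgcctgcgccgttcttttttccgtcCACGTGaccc

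The members as a set were lower in resistant cells of HCT116 and SW480 relative to the median gene, with medians near 0 in DLD-1. Each library was centred on its median gene, so that a log2 fold change says how far a gene moved relative to the median gene, and a gene was called at a limma adjusted p under 0.05 over all genes tested. In HCT116, 27 members were lower and 5 higher in 5-FU res than in WT, with a median log2 fold change of -0.50, while 39.1% of all genes were called lower and 36.0% higher. In HCT116 OX res, 37 members were lower than in WT and 0 higher, with a median of -1.14, beside 38.2% of all genes lower and 39.5% higher. POLR1A was the member not called there. The medians of all genes lay at -0.03 and 0.03 in these comparisons.

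In SW480, 36 members were lower and 0 higher in 5-FU res than in WT, with a median log2 fold change of -0.77, beside 34.7% of all genes lower and 34.5% higher. POLR1B and DDX21 were the members not called. In SW480 OX res, 27 were lower and 5 higher than in WT, with a median of -0.34, beside 34.2% and 33.0% of all genes. Falls of more than 2-fold, a log2 fold change under -1, were called for 22 members in HCT116 OX res, for 10 members in SW480 5-FU res, for 2 in HCT116 5-FU res and for 1 in SW480 OX res. The shares of all genes that fell this far were 12.5%, 7.44%, 6.79% and 3.85%, in that order of groups. Without centring, only FBL, BOP1, NOP16, MRTO4 and NPM1 stayed under -1 in HCT116 OX res. Only LYAR, NOP14 and NPM1 did so in SW480 5-FU res, and no member in HCT116 5-FU res or SW480 OX res. The shares of all genes under -1 on that scale were not counted. Each count of 0 given here and for the differences between drugs and lines was also 0 at an unadjusted limma p under 0.05. In all 4 of these comparisons together 25 members were lower, and the comparisons of a line share their WT libraries. The share of all genes lower in all 4 was not counted, so this number has no background beside it.

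Fewer members were called in DLD-1 than in HCT116 or SW480. In DLD-1 5-FU res, 9 members (23.7%) were lower and 4 (10.5%) higher than in WT, with a median of -0.02, beside 25.4% of all genes lower and 24.9% higher, and leaving out DLD-1 5-FU res replicate 2 or replicate 3 left 5 members lower in either case. In DLD-1 OX res, 15 (39.5%) were lower and 3 (7.89%) higher than in WT, with a median of -0.09, beside 22.2% of all genes lower and 24.2% higher. No member fell more than 2-fold in DLD-1, where 1.63% of all genes did so in 5-FU res and 1.19% in OX res. NOP14, NOP56 and PES1 were the 3 members called lower in all 6 comparisons, but the DLD-1 changes of NOP14 and PES1 were small and lost their call under several alternatives, with NOP14 in 5-FU res at an adjusted p up to 0.19 by limma when single libraries were left out, and NOP56 in DLD-1 OX res was -0.09 and not called without centring. The share of all genes lower in all 6 was not counted.

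**Figure D1:**
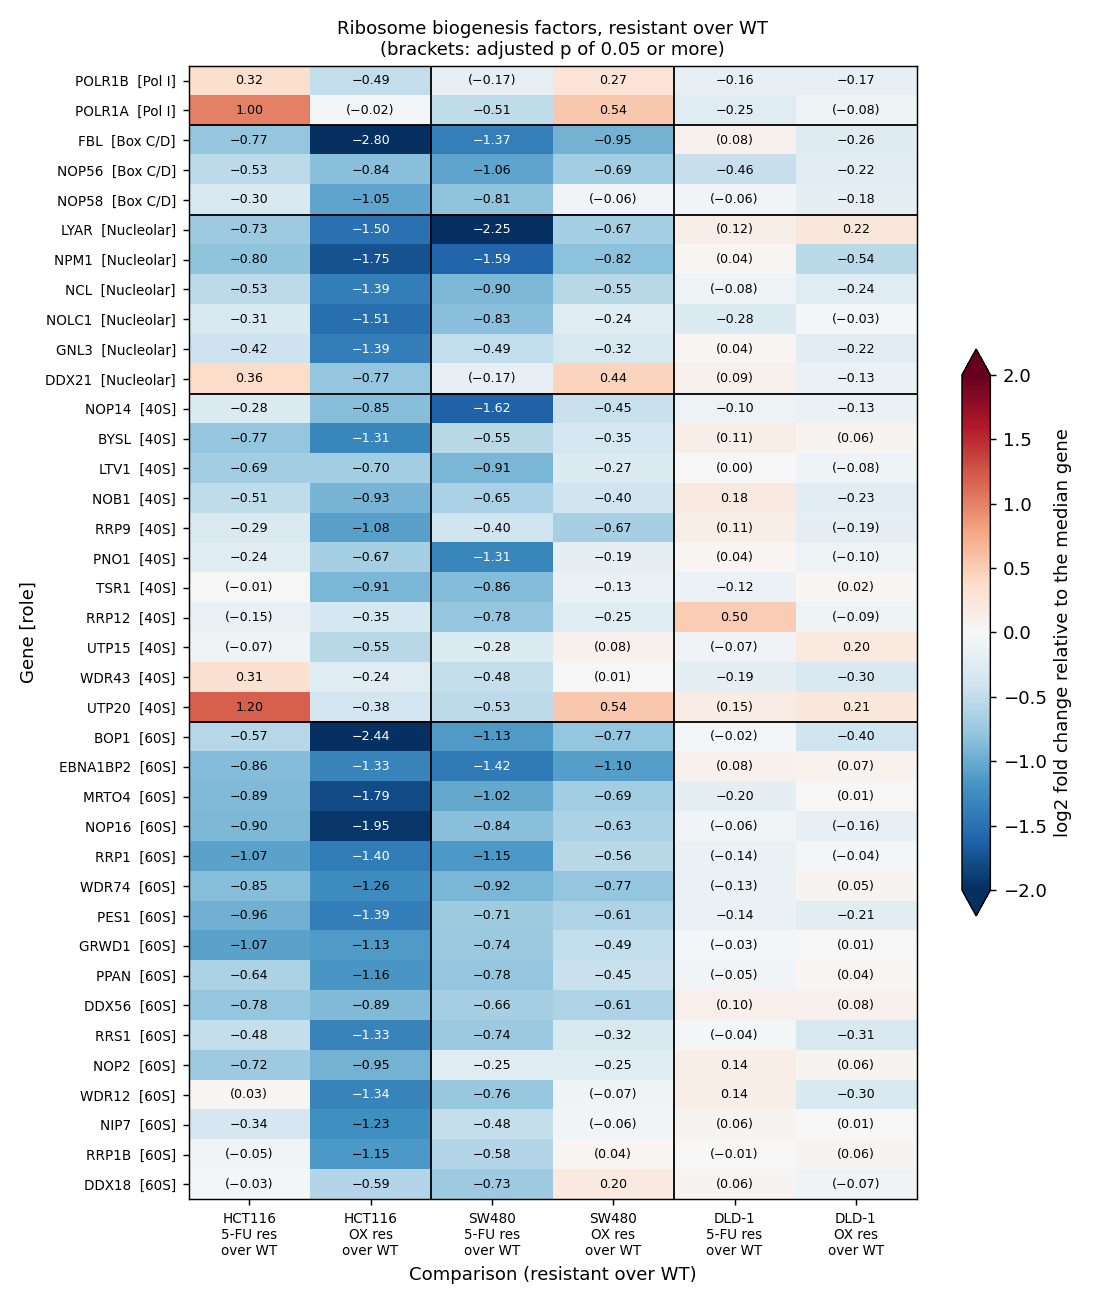
Log2 fold change relative to the median gene for each of the 38 members (rows, grouped by role) in the 6 comparisons of resistant cells over WT (columns). Blue cells are lower and red cells higher in resistant cells, values in brackets had a limma adjusted p of 0.05 or more, and the colour scale ends at 2 on either side. The HCT116 and SW480 columns are mostly blue, with POLR1A and UTP20 red in HCT116 5-FU res and SW480 OX res, and the DLD-1 columns are pale.

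The centring bears on these counts, because the median gene itself shifted between resistant cells and WT on the TPM scale, by 0.18 and 0.60 log2 units for 5-FU res and OX res of HCT116, by 0.44 and 0.36 for those of SW480 and by -0.03 and 0.13 for those of DLD-1. Without centring, 21 members were lower and 8 higher in 5-FU res of HCT116, beside 27.5% and 47.3% of all genes, and 30 and 3 in its OX res, beside 18.1% and 68.1%. For SW480 the counts lower and higher were 26 and 1 in 5-FU res, beside 15.6% and 61.7% of all genes, and 14 and 13 in OX res, beside 14.5% and 57.4%. For DLD-1 they were 10 and 2 in 5-FU res, beside 25.9% and 20.5%, and 5 and 10 in OX res, beside 11.2% and 38.7%. So most members were lower in both groups of HCT116 and in SW480 5-FU res on this scale too, while the SW480 OX res split became even and that of DLD-1 OX res turned. With quantile normalization, 16 members were lower and 12 higher in HCT116 5-FU res with a median of -0.04, beside 35.8% and 36.2% of all genes, so that the fall of the members in that comparison rests on the scale. In SW480 OX res the same normalization gave 20 lower and 7 higher, beside 32.7% and 32.0%. On the uncentred scale, 13 members were lower in all 4 comparisons of HCT116 and SW480, namely BOP1, DDX56, EBNA1BP2, FBL, LYAR, MRTO4, NCL, NOP16, NOP56, NPM1, PES1, RRP1 and WDR74. The share of all genes lower in all 4 on this scale was not counted.

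Single calls varied in how far they held under 3 other scales, namely without centring, with quantile normalization and with the trend on transcript length removed. All 3 kept 20 of 32 calls in HCT116 5-FU res, 30 of 37 in HCT116 OX res, 26 of 36 in SW480 5-FU res and 14 of 32 in SW480 OX res. For DLD-1 it was 10 of 13 in 5-FU res and 7 of 18 in OX res. The opposite direction was called under at least 1 of the 3 for NOLC1, NOP58 and RRP9 in HCT116 5-FU res, for RRP12 and WDR43 in HCT116 OX res, for NOP2 in SW480 5-FU res, and for NOP2 and TSR1 in SW480 OX res.

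The summed TPM of the 38 members, of which NPM1 alone made up 25.5% to 45.7%, ran in the same order as the medians without any centring. The sums were 5726, 5907 and 5955 TPM in HCT116 5-FU res, 4259, 4199 and 4230 TPM in HCT116 OX res and 7406, 7897 and 7749 TPM in HCT116 WT, so that no resistant library reached a WT library. In SW480 they were 5052, 4962 and 4902 TPM in SW480 5-FU res, 7021, 6829 and 7000 TPM in SW480 OX res and 8676, 7986 and 8403 TPM in SW480 WT, again without overlap. In DLD-1 they were 6294, 6325 and 5734 TPM in DLD-1 5-FU res, 5882, 5724 and 5652 TPM in DLD-1 OX res and 6326, 6302 and 6257 TPM in DLD-1 WT, where 5-FU res overlapped WT and OX res lay below it. Without NPM1 the mean sums were 4143 TPM in HCT116 5-FU res, 3092 TPM in HCT116 OX res and 5101 TPM in HCT116 WT, against 3281, 4187 and 4581 TPM in the SW480 groups in that order and 3987, 4172 and 4192 TPM in those of DLD-1. So the order in DLD-1 rested on NPM1, and without it 5-FU res was lowest. The sums do not speak for most members, whose uncentred median change was 0.03 in SW480 OX res and 0.05 in DLD-1 OX res.

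**Figure D2:**
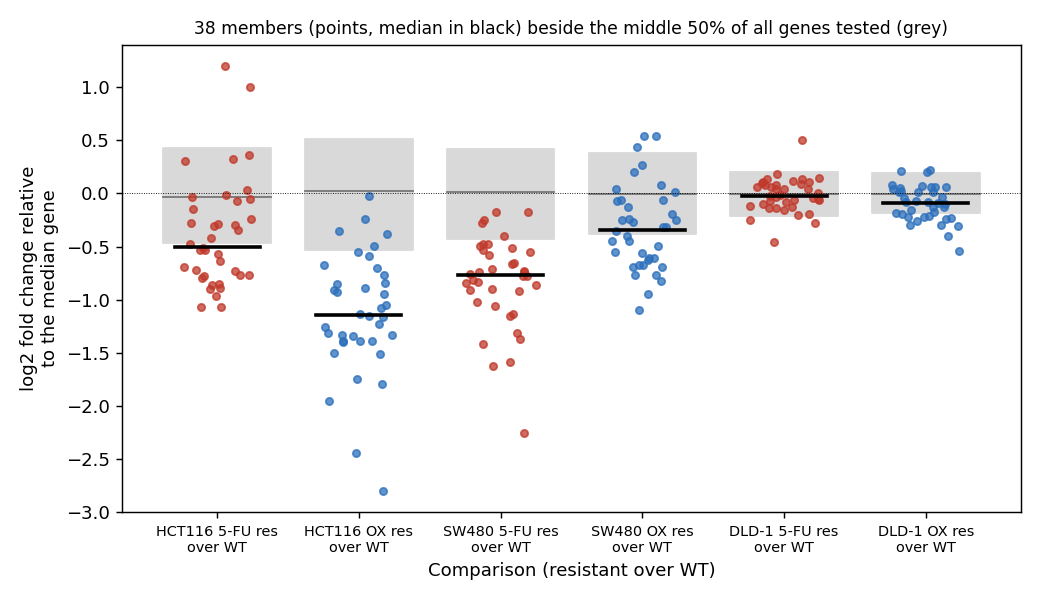
Log2 fold change relative to the median gene (y axis) of the 38 members (points, with their median as a black bar) in the 6 comparisons of resistant cells over WT (x axis). The grey box spans the middle 50% of all genes tested and the grey line is their median. The members' medians lie at -0.50 and -1.14 for 5-FU res and OX res of HCT116, -0.77 and -0.34 for those of SW480, and at -0.02 and -0.09 in DLD-1 5-FU res and OX res.

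RNA polymerase I was represented by POLR1A and POLR1B, its largest subunits, and neither was called lower in HCT116 5-FU res or SW480 OX res. POLR1A had 35.5, 29.4 and 34.6 TPM in HCT116 5-FU res, against 13.2, 13.01 and 15.1 TPM in HCT116 WT, and the groups did not overlap. Its log2 fold change was 1.0 ± 0.09 (SE, adjusted p = 2e-06) by limma. In SW480 OX res it had 33.7, 37.96 and 36.2 TPM, against 22.9, 14.2 and 19.7 TPM in SW480 WT, with a change of 0.54 ± 0.10 (SE, adjusted p = 0.00095). Once the length trend of all genes was taken out, the POLR1A change was 0.33 in HCT116 5-FU res and 0.03 in SW480 OX res, the last not called. The opposite direction was called in SW480 5-FU res, at -0.51 ± 0.10 (SE, adjusted p = 0.0014) relative to the median gene, where the uncentred change was -0.07 and not called and its TPM of 17.2, 18.1 and 17.5 overlapped those of WT. POLR1B changed in the same directions in HCT116 5-FU res (0.32) and SW480 OX res (0.27), fell in HCT116 OX res (-0.49), and was not called in SW480 5-FU res (-0.17). With the length trend removed, POLR1B was at -0.06 in HCT116 5-FU res and -0.06 in SW480 OX res, and neither was called. In HCT116 OX res, the uncentred changes were 0.08 for POLR1B, which was not called and overlapped WT in TPM, and 0.56 for POLR1A, which was called higher.

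The box C/D snoRNP proteins FBL, the methyltransferase fibrillarin, and its partners NOP56 and NOP58 were called lower in 3 of 3 cases in both HCT116 groups, in 3 of 3 in SW480 5-FU res and in 2 of 3 in SW480 OX res. FBL had the largest change of all members. It had 335, 357 and 330.2 TPM in HCT116 5-FU res and 109.7, 107 and 102 TPM in the OX res libraries, against 489.6, 521 and 493 TPM in WT. The 3 groups did not overlap. Relative to the median gene, FBL fell by 2.80 ± 0.07 on the log2 scale in OX res (SE, limma adjusted p = 5e-11) and changed by -0.77 ± 0.07 (SE, adjusted p = 1.4e-06) in 5-FU res. FBL stood at 335, 338 and 344 TPM in SW480 5-FU res and 425, 441 and 437 TPM in the OX res libraries, against 623, 665 and 657 TPM in WT. The changes were -1.37 ± 0.07 (SE, adjusted p = 3.4e-08) in 5-FU res and -0.95 ± 0.07 (SE, adjusted p = 1e-06) in OX res. FBL stood at 255, 253 and 259 TPM in DLD-1 5-FU res and 231, 227 and 219 TPM in the OX res libraries, against 240.1, 235 and 263 TPM in WT. There the change was 0.08 ± 0.05 (SE, adjusted p = 0.21) in 5-FU res and -0.26 ± 0.05 (SE, adjusted p = 0.0023) in OX res.

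NOP56, a core protein of the same particle, had 289, 285 and 279 TPM in HCT116 5-FU res and 296, 296 and 289.6 TPM in the OX res libraries, against 344, 369 and 349 TPM in WT. NOP56 stood at 251, 252 and 237 TPM in SW480 5-FU res and 301, 299 and 316 TPM in the OX res libraries, against 385, 374 and 383 TPM in WT. All resistant libraries of both lines lay below WT, and the changes were -0.53 and -0.84 in HCT116 5-FU res and OX res and -1.06 and -0.69 in SW480 5-FU res and OX res. In DLD-1, NOP56 had the largest fall of any member in 5-FU res, with 216, 227 and 201 TPM in DLD-1 5-FU res, 294, 279 and 276 TPM in DLD-1 OX res and 303, 303 and 299 TPM in DLD-1 WT. The change was -0.46 ± 0.03 (SE, adjusted p = 1.2e-06) in 5-FU res by limma. With quantile normalization the HCT116 5-FU res change of NOP56 was -0.01 and was not called. NOP58 was lower in both groups of HCT116, at -0.30 in 5-FU res and -1.05 in OX res. In SW480 it was lower with 5-FU resistance (-0.81) and was not called in SW480 OX res (-0.06). The HCT116 5-FU res change of NOP58 depended on the scale, at -0.09 and not called without centring and 0.14 and called higher with quantile normalization, and its TPM overlapped WT. In SW480 OX res, NOP58 was called higher without centring (0.31) and with quantile normalization (0.19).

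Among the 6 nucleolar proteins of several roles, NPM1 (nucleophosmin, a histone and ribosomal protein chaperone) had 1611, 1743 and 1805 TPM in HCT116 5-FU res and 1154, 1180.5 and 1078 TPM in the OX res libraries, against 2404, 2693 and 2651 TPM in WT. NPM1 stood at 1763, 1664 and 1645 TPM in SW480 5-FU res and 2839, 2690.5 and 2758 TPM in the OX res libraries, against 3968, 3606 and 3747 TPM in WT. The groups of either line did not overlap, and the changes were -0.80 ± 0.08 (SE, adjusted p = 5.6e-06) and -1.75 ± 0.08 (SE, adjusted p = 6.6e-09) in HCT116 5-FU res and OX res by limma. In SW480 they were -1.59 ± 0.05 (SE, adjusted p = 1.9e-09) in 5-FU res and -0.82 ± 0.05 (SE, adjusted p = 4.8e-07) in OX res, the last being -0.09 and not called with quantile normalization. NPM1 stood at 2229, 2185 and 1979 TPM in DLD-1 5-FU res and 1635, 1549 and 1559 TPM in the OX res libraries, against 2140.4, 2123 and 2047 TPM in WT. Here 5-FU res overlapped WT and OX res lay below it, with a change of -0.54 ± 0.04 (SE, adjusted p = 1.2e-06). NCL (nucleolin), NOLC1, a chaperone of snoRNPs, and GNL3 (nucleostemin) were lower in all 4 comparisons of HCT116 and SW480, at -1.39, -1.51 and -1.39 in HCT116 OX res. In HCT116 5-FU res they were at -0.53, -0.31 and -0.42, but with quantile normalization NCL (-0.01) and GNL3 (0.03) were not called and NOLC1 was called higher (0.15). Without centring, GNL3 was not called in SW480 5-FU res (-0.06) or SW480 OX res (0.05), nor NOLC1 in SW480 OX res (0.14).

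LYAR, a nucleolar protein that takes part in processing of the precursor RNA, had the largest fall in SW480 5-FU res. It had 26.2, 32.5 and 27.6 TPM in SW480 5-FU res and 84.03, 88.1 and 80.4 TPM in the OX res libraries, against 106, 98.1 and 107 TPM in WT. Every 5-FU res library lay far below WT. The changes were -2.25 ± 0.07 (SE, adjusted p = 2e-09) in 5-FU res and -0.67 ± 0.07 (SE, adjusted p = 2e-05) in OX res by limma. LYAR stood at 62.7, 63.5 and 67.4 TPM in HCT116 5-FU res and 47.8, 50.5 and 46.9 TPM in the OX res libraries, against 91.1, 92.6 and 95.5 TPM in WT. The changes were -0.73 ± 0.06 (SE, adjusted p = 1.1e-06) and -1.50 ± 0.06 (SE, adjusted p = 2.2e-09) in 5-FU res and OX res. LYAR stood at 50.2, 50.1 and 49.97 TPM in DLD-1 5-FU res and 61.02, 55.3 and 63.7 TPM in the OX res libraries, against 47.4, 46.5 and 46.4 TPM in WT. The order was turned in this line, and OX res was higher by 0.22 ± 0.06 (SE, adjusted p = 0.012). DDX21, an RNA helicase that works in both RNA polymerase I and polymerase II transcription, was the exception in this role, being higher in HCT116 5-FU res (0.36) and SW480 OX res (0.44) and lower in HCT116 OX res (-0.77).

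**Figure D3:**
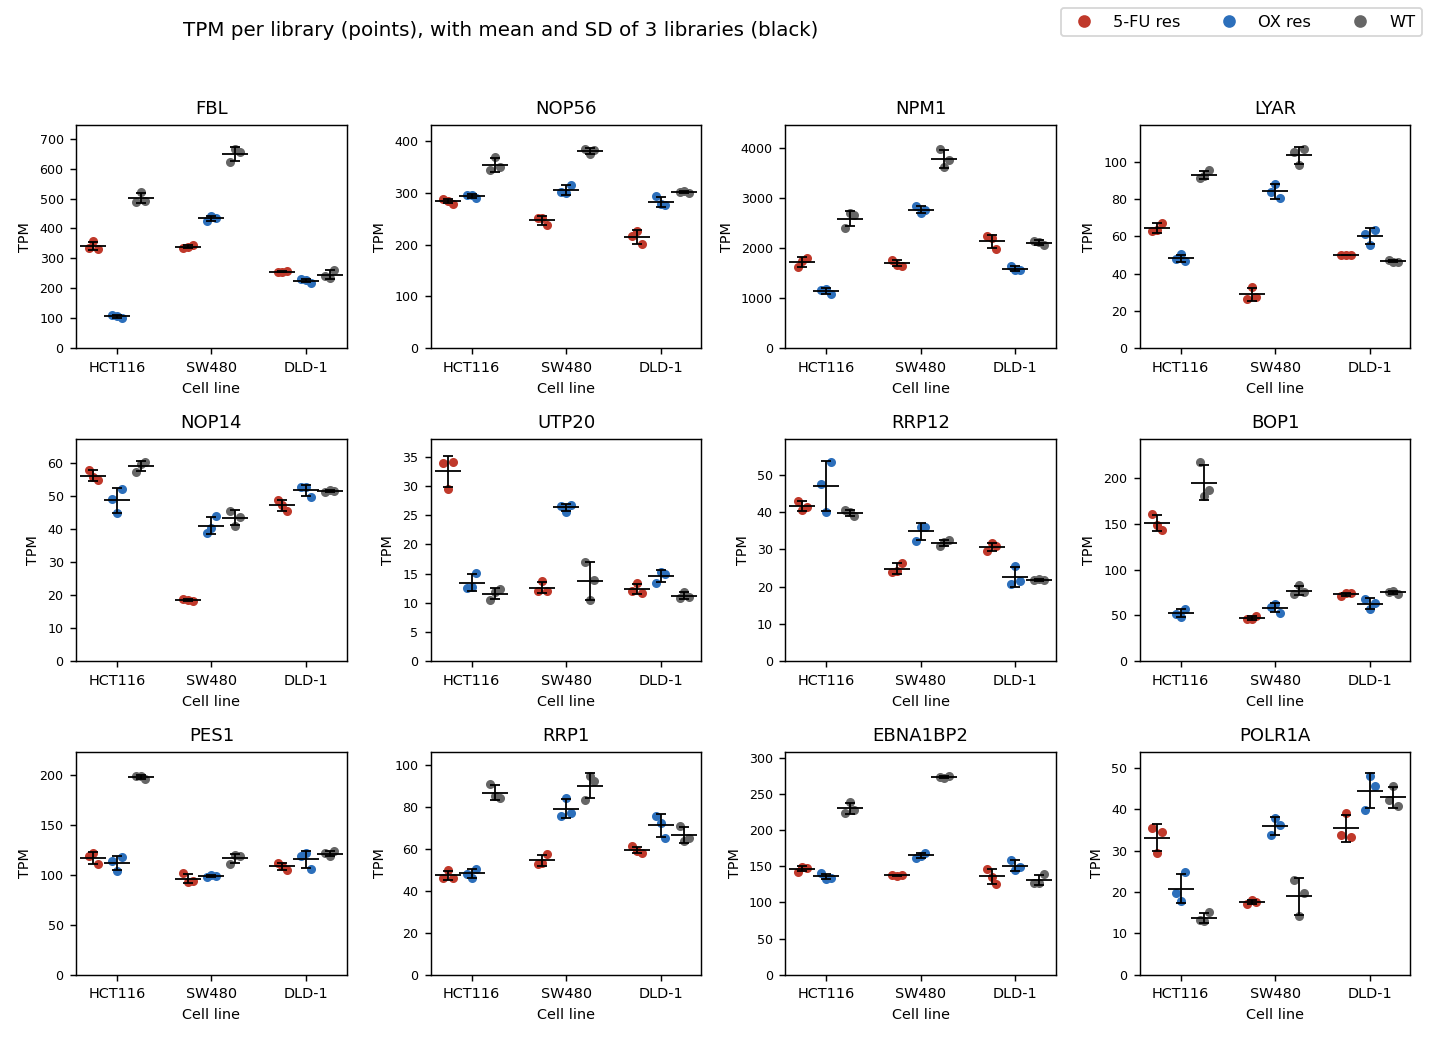
TPM of 12 members in every library (points), with the mean and SD of 3 libraries in black, for 5-FU res (red), OX res (blue) and WT (grey) of each line, with every y axis starting at 0. FBL, NPM1, EBNA1BP2 and LYAR lie below WT in all resistant libraries of HCT116 and SW480, whereas UTP20 and POLR1A lie above WT in both resistant groups of HCT116 and in SW480 OX res.

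Of the 11 factors of the small subunit, 6 were lower and 2 higher in HCT116 5-FU res, 11 lower in HCT116 OX res, 11 lower in SW480 5-FU res, and 8 lower and 1 higher in SW480 OX res. Without centring these counts were 3 and 3, 6 and 2, 6 and 0, and 1 and 4, so the direction of this role depended on the scale outside SW480 5-FU res and HCT116 OX res. NOP14, a component of the SSU processome, had 18.95, 18.4 and 18.3 TPM in SW480 5-FU res and 38.9, 40.4 and 43.9 TPM in the OX res libraries, against 45.6, 41.1 and 43.6 TPM in WT. Only 5-FU res was separate from WT, with a change of -1.62 ± 0.06 (SE, adjusted p = 3.7e-09) by limma. NOP14 stood at 58.00, 55.7 and 54.9 TPM in HCT116 5-FU res and 49.1, 44.9 and 52.2 TPM in the OX res libraries, against 57.4, 59.7 and 60.2 TPM in WT. The changes were -0.28 ± 0.04 (SE, adjusted p = 0.00012) in 5-FU res and -0.85 ± 0.04 (SE, adjusted p = 1.2e-08) in OX res, and the 5-FU res change was 0.01 and not called with quantile normalization. NOP14 stood at 48.9, 47.2 and 45.6 TPM in DLD-1 5-FU res and 52.7, 52.8 and 49.6 TPM in the OX res libraries, against 51.2, 51.8 and 51.7 TPM in WT. The changes were -0.10 and -0.13 in 5-FU res and OX res, and OX res overlapped WT.

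UTP20, a large scaffold protein of the SSU processome, was called higher in 3 of the 6 comparisons, the most of any member. UTP20 stood at 33.9, 29.5 and 34.03 TPM in HCT116 5-FU res and 12.5, 12.8 and 15.1 TPM in the OX res libraries, against 10.6, 11.9 and 12.3 TPM in WT. In this line 5-FU res lay above every other library. Its changes were 1.20 ± 0.07 (SE, adjusted p = 1e-07) in 5-FU res and -0.38 ± 0.07 (SE, adjusted p = 0.00059) in OX res by limma, but without centring the OX res change was 0.20 and not called. Every HCT116 OX res library lay above all WT libraries in the TPM of UTP20. UTP20 stood at 12.1, 13.7 and 12.1 TPM in SW480 5-FU res and 26.6, 25.6 and 26.8 TPM in the OX res libraries, against 16.9, 10.5 and 13.9 TPM in WT. The changes were -0.53 ± 0.10 (SE, adjusted p = 0.00082) in 5-FU res and 0.54 ± 0.10 (SE, adjusted p = 0.00081) in OX res. The 5-FU res fall was -0.09 and not called without centring, and the TPM lay within the range of WT. The SW480 WT libraries spread widely for this gene, and with the trend on transcript length removed the OX res change was 0.12 and not called. UTP20 stood at 11.98, 13.4 and 11.7 TPM in DLD-1 5-FU res and 13.4, 15.3 and 14.98 TPM in the OX res libraries, against 10.9, 11.9 and 10.96 TPM in WT. The OX res change of 0.21 ± 0.07 (SE, adjusted p = 0.025) lost its call when DLD-1 WT replicate 1 or 3, or DLD-1 OX res replicate 2 or 3, was left out.

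RRP12, which acts in the maturation and export of pre-ribosomes, was the member with the largest rise in DLD-1 5-FU res. It had 29.5, 31.7 and 30.9 TPM in DLD-1 5-FU res and 20.7, 25.6 and 21.5 TPM in the OX res libraries, against 21.7, 22.1 and 21.8 TPM in WT. RRP12 in 5-FU res was higher by 0.50 ± 0.07 (SE, adjusted p = 0.00018) by limma. RRP12 stood at 23.9, 24.2 and 26.4 TPM in SW480 5-FU res and 32.3, 36.00 and 36.1 TPM in the OX res libraries, against 30.9, 32.1 and 32.4 TPM in WT. The changes were -0.78 ± 0.08 (SE, adjusted p = 9.5e-06) in 5-FU res and -0.25 ± 0.08 (SE, adjusted p = 0.019) in OX res, the last losing its call without SW480 WT replicate 2 (adjusted p = 0.052) or SW480 OX res replicate 1 (adjusted p = 0.087). RRP12 stood at 43.1, 40.5 and 41.5 TPM in HCT116 5-FU res and 47.6, 39.9 and 53.3 TPM in the OX res libraries, against 40.5, 40.05 and 39.00 TPM in WT. It was called lower in HCT116 OX res (-0.35) relative to the median gene although every OX res library but 1 exceeded all WT libraries in TPM. Without centring the OX res changes of RRP12 turned to 0.22 in HCT116 and 0.12 in SW480.

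The fold changes of the other small subunit factors ran as follows. BYSL, which acts in late 40S assembly, fell most in HCT116 OX res (-1.31), and PNO1, the partner of the NOB1 endonuclease, fell most in SW480 5-FU res (-1.31). NOB1, which makes the final cut of 18S ribosomal RNA, fell in all 4 comparisons of HCT116 and SW480, by 0.51 to 0.93 in HCT116, but was not called in SW480 OX res without centring (-0.02) or in HCT116 5-FU res with quantile normalization (-0.07). RRP9, a protein of the U3 particle, fell by 1.08 in HCT116 OX res, and LTV1, which acts in late 40S maturation, fell by 0.91 in SW480 5-FU res. TSR1, a late 40S assembly factor, fell in HCT116 OX res (-0.91), fell also in SW480 5-FU res (-0.86) and was not called in HCT116 5-FU res (-0.01). UTP15 and WDR43, of the SSU processome, were lower in HCT116 OX res, at -0.55 and -0.24, and WDR43 was higher in HCT116 5-FU res (0.31). Without centring, WDR43 was called higher in HCT116 OX res (0.33), where it had 79.5, 77.2 and 90.2 TPM, against 60.8, 65.7 and 69.4 TPM in HCT116 WT, and UTP15 was not called (0.02).

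The 16 factors of the large subunit were mostly lower in HCT116 and SW480. In HCT116 5-FU res 13 were lower and 0 higher, in HCT116 OX res and SW480 5-FU res 16 of 16 were lower, and in SW480 OX res 12 were lower and 1, DDX18, higher. Without centring the counts lower and higher were 12 and 2, 15 and 0, 13 and 1, and 8 and 5, in the same order. The median changes relative to the median gene were -0.75, -1.29, -0.75 and -0.53. In DLD-1, 2 were lower and 2 higher in 5-FU res, and 4 lower and 0 higher in OX res.

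BOP1, PES1 and WDR12 form the PeBoW complex, which is needed for maturation of the large subunit RNAs. BOP1 had 161, 149 and 143 TPM in HCT116 5-FU res and 52.1, 48.6 and 57.04 TPM in the OX res libraries, against 217, 180.3 and 187 TPM in WT. The OX res change of -2.44 ± 0.07 (SE, adjusted p = 2.3e-10) was second to that of FBL. The 5-FU res change was -0.57 ± 0.07 (SE, adjusted p = 2.9e-05) by limma, and -0.12 and not called with quantile normalization. BOP1 stood at 46.2, 46.2 and 49.6 TPM in SW480 5-FU res and 59.6, 62.3 and 52.9 TPM in the OX res libraries, against 73.6, 82.8 and 75.1 TPM in WT. Both resistant groups lay below WT, with changes of -1.13 and -0.77 in 5-FU res and OX res. BOP1 stood at 70.9, 73.97 and 73.99 TPM in DLD-1 5-FU res and 68.2, 56.5 and 63.4 TPM in the OX res libraries, against 75.2, 77.1 and 73.9 TPM in WT. The OX res change there was -0.40 ± 0.07 (SE, adjusted p = 0.00058).

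PES1 had 118, 122 and 110.4 TPM in HCT116 5-FU res and 114, 104 and 118 TPM in the OX res libraries, against 199, 198 and 196 TPM in WT. Both resistant groups lay far below WT and overlapped each other. The changes were -0.96 ± 0.05 (SE, adjusted p = 4.3e-08) in 5-FU res and -1.39 ± 0.05 (SE, adjusted p = 1e-09) in OX res by limma. PES1 stood at 101, 92.5 and 94.05 TPM in SW480 5-FU res and 97.3, 99.3 and 98.1 TPM in the OX res libraries, against 111, 119 and 119 TPM in WT. The changes were -0.71 and -0.61 in 5-FU res and OX res. PES1 stood at 111, 109 and 104 TPM in DLD-1 5-FU res and 119, 122 and 105 TPM in the OX res libraries, against 121, 118 and 124 TPM in WT. WDR12 differed from its partners in HCT116 5-FU res, where it was not called (0.03), and fell in HCT116 OX res (-1.34) and SW480 5-FU res (-0.76).

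RRP1, whose yeast counterpart acts in 60S assembly, had one of the largest changes in HCT116 5-FU res. It had 46.1, 49.98 and 46.1 TPM in HCT116 5-FU res and 48.2, 46.4 and 50.4 TPM in the OX res libraries, against 90.8, 85.4 and 84.4 TPM in WT. The changes were -1.07 ± 0.06 (SE, adjusted p = 4.2e-08) in 5-FU res and -1.40 ± 0.06 (SE, adjusted p = 2e-09) in OX res by limma. RRP1 stood at 52.7, 53.4 and 57.7 TPM in SW480 5-FU res and 75.95, 84.4 and 77.2 TPM in the OX res libraries, against 83.4, 95.01 and 92.2 TPM in WT. OX res overlapped WT in TPM and 5-FU res did not. RRP1 stood at 61.2, 58.95 and 58.2 TPM in DLD-1 5-FU res and 75.8, 72.7 and 65.4 TPM in the OX res libraries, against 70.8, 63.9 and 65.5 TPM in WT. Neither DLD-1 change was called. Its paralog RRP1B was lower in HCT116 OX res (-1.15) and SW480 5-FU res (-0.58) but was not called in HCT116 5-FU res (-0.05) or SW480 OX res (0.04), and its SW480 5-FU res change was -0.15 and not called without centring.

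EBNA1BP2, whose yeast counterpart Ebp2 acts in 60S assembly, had the largest fall of SW480 OX res. It had 138, 137 and 138 TPM in SW480 5-FU res and 162, 165 and 169 TPM in the OX res libraries, against 274, 273 and 276 TPM in WT. No resistant library reached WT. The changes were -1.42 ± 0.05 (SE, adjusted p = 5.1e-09) in 5-FU res and -1.10 ± 0.05 (SE, adjusted p = 9.1e-08) in OX res by limma. EBNA1BP2 stood at 143, 149.9 and 147 TPM in HCT116 5-FU res and 141, 133 and 135 TPM in the OX res libraries, against 224, 239 and 229 TPM in WT. The changes were -0.86 and -1.33. EBNA1BP2 stood at 147, 136 and 126 TPM in DLD-1 5-FU res and 159, 145 and 149 TPM in the OX res libraries, against 127, 127 and 139 TPM in WT. Neither group was called.

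NOP16 and MRTO4, a relative of the ribosomal stalk protein P0, followed FBL and BOP1 in HCT116 OX res, at -1.95 and -1.79. GRWD1, a chaperone of ribosomal protein RPL3, fell by 1.07 in 5-FU res of HCT116 and by 1.13 in its OX res. WDR74, RRS1, which acts with the 5S particle, PPAN and the helicase DDX56 were lower in all 4 comparisons of HCT116 and SW480, at -1.26, -1.33, -1.16 and -0.89 in HCT116 OX res. Without centring, RRS1 (0.05) and PPAN (-0.07) were not called in SW480 OX res. NOP2, a methyltransferase of 28S ribosomal RNA, was lower in HCT116 5-FU res (-0.72) and HCT116 OX res (-0.95). In SW480, NOP2 was called lower relative to the median gene at -0.25 in each resistant group, although it had 135, 136 and 142 TPM in SW480 5-FU res and 131, 131 and 134 TPM in the OX res libraries, against 121, 118 and 124 TPM in WT. All resistant SW480 libraries thus lay above WT in TPM, and without centring NOP2 was called higher with both drugs, at 0.19 for 5-FU and 0.12 for OX. Of the 4 comparisons of HCT116 and SW480, NIP7 was lower in all but SW480 OX res (-0.06), and it was not called in DLD-1. Without centring its falls in HCT116 5-FU res (-0.13) and SW480 5-FU res (-0.04) were not called. DDX18, another helicase, was lower in HCT116 OX res (-0.59) and SW480 5-FU res (-0.73) and higher in SW480 OX res (0.20). The HCT116 OX res change of DDX18 was -0.02 and not called without centring, and that in SW480 OX res was 0.01 and not called with the length trend removed.

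The 5-FU res and OX res groups differed from each other, and in opposite ways in HCT116 and SW480. Each line had 1 group per drug, so a difference between drugs cannot be told apart from one between the resistant populations. In HCT116, 35 members had higher levels with 5-FU res than with OX res and 0 had lower ones, with a median log2 fold change of 0.76, beside 38.7% of all genes higher and 36.4% lower. In SW480, 33 were lower and 1 higher in 5-FU res than in OX res, with a median of -0.42, beside 33.6% lower and 31.6% higher. Without centring the counts lower and higher were 4 and 25 in HCT116, beside 56.7% and 20.4% of all genes, and 30 and 1 in SW480, beside 27.3% and 34.3%. In DLD-1, 6 were lower and 15 higher, with a median of 0.06, beside 31.7% and 31.2% of all genes, but 13 were lower and 6 higher without centring, beside 44.6% and 18.3%. Across the 4 comparisons of HCT116 and SW480 with WT, HCT116 OX res held the lowest value of 27 members and SW480 5-FU res that of the other 11. FBL showed both directions, at 2.03 in HCT116 and -0.42 in SW480, as did LYAR at 0.77 and -1.58.

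The WT lines started from different levels. In a fit over all 27 libraries, 33 members were higher and 5 lower in HCT116 WT than in DLD-1 WT, with a median log2 fold change of 0.60, beside 43.1% of all genes higher and 39.0% lower. In SW480 WT 27 were higher and 5 lower than in DLD-1 WT, with a median of 0.35, beside 42.5% and 39.5%. HCT116 WT against SW480 WT gave 19 higher and 12 lower, with a median of 0.12, beside 38.2% and 38.2%. Without centring, HCT116 WT had 25 members higher and 6 lower than DLD-1 WT, beside 25.8% and 53.2% of all genes, and SW480 WT 15 higher and 14 lower, beside 27.1% and 53.8%. With quantile normalization SW480 WT had 20 higher and 7 lower than DLD-1 WT, beside 37.8% and 42.0%. BOP1 in HCT116 WT lay 1.31 above SW480 WT and 1.73 above DLD-1 WT on the log2 scale, and FBL in SW480 WT lay 1.78 above DLD-1 WT.

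About each member's mean over the 9 sets, the median log2 level was 0.21 for 5-FU res, -0.48 for OX res and 0.61 for WT of HCT116. In SW480 it was -0.38 in 5-FU res, 0.14 in OX res and 0.30 in WT, and in DLD-1 -0.10, -0.17 and -0.05 in the same order. HCT116 WT was the highest set for 19 members and SW480 WT for 10, while HCT116 OX res was the lowest for 18 and SW480 5-FU res for 13. The DLD-1 medians lay below those of WT of the other lines and above those of HCT116 OX res and SW480 5-FU res.

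**Figure D4:**
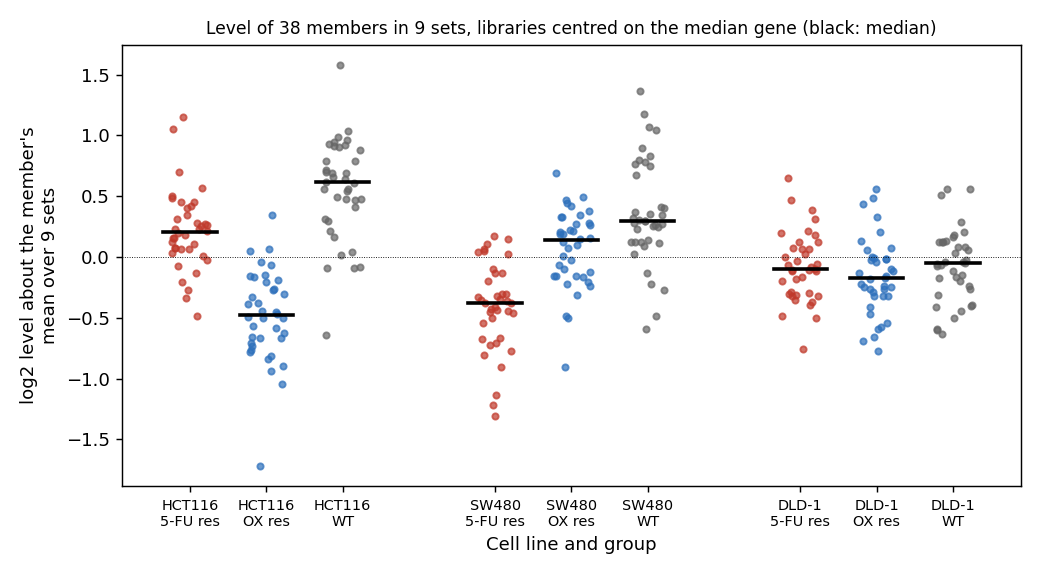
Log2 level of each of the 38 members about its own mean over the 9 sets (y axis, libraries centred on the median gene), for 5-FU res, OX res and WT of each line (x axis). Points are members and black bars their medians, which are lowest for HCT116 OX res (-0.48) and SW480 5-FU res (-0.38) and highest for HCT116 WT (0.61).

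The difference between lines was itself tested, as the resistant over WT change of 1 line minus that of another. For OX, the change of HCT116 was below that of SW480 for 34 members and above it for 0, with 63.5% of all genes called in either direction. It was below that of DLD-1 for 35 and above it for 0, beside 69.2% of all genes. The OX change of SW480 was below that of DLD-1 for 20 and above it for 8, beside 60.1%, and the split was 10 and 8 without centring, beside 18.5% and 41.2% of all genes, and 11 and 9 with quantile normalization, beside 28.3% and 29.7%. For 5-FU, the change of SW480 was below that of DLD-1 for 34 and above it for 0, beside 63.5%. That of HCT116 was above that of SW480 for 22 and below it for 4, beside 64.5%, and below that of DLD-1 for 26 and above it for 6, beside 64.1%, where quantile normalization gave 17 below and 13 above, beside 30.4% and 31.6%. For 5-FU between HCT116 and SW480, 26 of 38 members were called in either direction, near the share of all genes. The main shares here count both directions. With median-of-ratios scaling, 29.6% to 33.2% of all genes were called below and 31.1% to 36.9% above in these differences.

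Members called in opposite directions in both lines, with a difference of 1 or more, were POLR1A, UTP20, RRP12, DDX21 and LYAR. For 5-FU, UTP20 differed by 1.72 ± 0.12 (SE, adjusted p = 4.3e-11) between HCT116 and SW480 and POLR1A by 1.5 ± 0.15 (SE, adjusted p = 7e-09), by limma. The falls of both genes in SW480 5-FU res were not called without centring. POLR1A also differed by 1.29 ± 0.15 (SE, adjusted p = 7.7e-08) between HCT116 and DLD-1, and RRP12 by -1.23 ± 0.10 (SE, adjusted p = 8.5e-10) between SW480 and DLD-1. For OX, DDX21 differed by -1.14 ± 0.10 (SE, adjusted p = 1.3e-09) between HCT116 and SW480 and LYAR by -1.63 ± 0.09 (SE, adjusted p = 5.7e-13) between HCT116 and DLD-1.

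Another 107 ribosome biogenesis genes, among them the other RNA polymerase I subunits, the H/ACA snoRNP and further processome and 60S factors, were counted beside the members, and all were tested. In HCT116, 69 were lower and 19 higher with 5-FU res, beside 39.1% and 36.0% of all genes. With OX res 95 were lower and 7 higher, beside 38.2% and 39.5%. In SW480, 77 were lower and 7 higher with 5-FU res, beside 34.7% and 34.5%. With OX res 53 were lower and 19 higher, beside 34.2% and 33.0%. In DLD-1 the counts were 18 and 21 in 5-FU res, beside 25.4% and 24.9%, and 24 and 14 in OX res, beside 22.2% and 24.2%. Their medians were -0.30, -0.74, -0.54 and -0.18 in 5-FU res and OX res of HCT116 and then of SW480, in each case nearer to 0 than the median of the 38 members. On the uncentred scale the medians were -0.09, -0.17, -0.10 and 0.19 in the same order, so that the direction turned in SW480 OX res. LAS1L, a 60S processing factor, NHP2, a protein of the H/ACA snoRNP, and NLE1, a 60S assembly factor, were called lower in all 6 comparisons, with their largest falls at -1.31 in SW480 OX res for LAS1L and at -1.75 and -1.51 in HCT116 OX res for NHP2 and NLE1. On the uncentred scale NLE1 stood at 0.05 in HCT116 5-FU res and LAS1L at 0.00 in DLD-1 OX res. NOL11 (-1.01), an SSU processome protein, and RUVBL2 (-1.54), a helicase that takes part in snoRNP assembly, were also lower in HCT116 OX res. RRP36, which acts in 18S RNA maturation, had its largest change in HCT116 5-FU res (-1.11). NOL11 was called higher in DLD-1 OX res (0.21), RUVBL2 in DLD-1 5-FU res (0.14) and RRP36 in both DLD-1 groups (0.16 in 5-FU res and 0.13 in OX res). On the uncentred scale RRP36 was at -0.90 in HCT116 5-FU res and at 0.01 to 0.26 in the other comparisons.

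MYC, a transcription factor known to activate many of these genes, was measured in the same libraries. It had 460.0, 443 and 430.1 TPM in HCT116 5-FU res and 92.9, 93.5 and 99.6 TPM in the OX res libraries, against 316, 300.3 and 312 TPM in WT. The 3 groups did not overlap. Relative to the median gene MYC changed by 0.31 (adjusted p = 9.3e-05) in 5-FU res and -2.26 (adjusted p = 1.9e-11) in OX res by limma. In HCT116 5-FU res 27 members were lower and 5 higher relative to the median gene, beside 39.1% and 36.0% of all genes. With quantile normalization 16 were lower and 12 higher, beside 35.8% and 36.2%. MYC stood at 134, 133 and 137 TPM in SW480 5-FU res and 172, 185 and 176 TPM in the OX res libraries, against 135, 129.8 and 140.0 TPM in WT. The changes were -0.44 (adjusted p = 3.7e-05) in 5-FU res, where its TPM overlapped WT, and 0.02 (adjusted p = 0.77) in OX res. Every SW480 OX res library lay above WT in the TPM of MYC. MYC stood at 160.3, 161 and 155 TPM in DLD-1 5-FU res and 141, 149 and 132 TPM in the OX res libraries, against 209, 217 and 216 TPM in WT. The changes were -0.40 (adjusted p = 6.9e-06) and -0.74 (adjusted p = 1e-07) in 5-FU res and OX res, where 9 and 15 members were lower and 4 and 3 higher. The shares of all genes lower and higher were 25.4% and 24.9% in DLD-1 5-FU res and 22.2% and 24.2% in DLD-1 OX res. Whether MYC had a part in the members' changes was not tested.

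Markers of the epithelium moved in both directions. Of the 12, 7 reached 1 TPM in the resistant group or WT in each comparison of HCT116 and SW480. Their means were below WT for 4 and above it for 3 in the 5-FU res group of HCT116, 5 and 2 in its OX res group, 4 and 3 in the 5-FU res group of SW480, and 5 and 2 in its OX res group. The 12 summed to 7506 to 8067 TPM in HCT116 5-FU res, 5703 to 6117 TPM in its OX res and 6828 to 7039.5 TPM in WT. In SW480 the sums were 8727 to 9031 TPM in 5-FU res, 10375 to 11167 TPM in OX res and 8771 to 9198 TPM in WT. EPCAM, an epithelial surface protein, averaged 488 TPM in HCT116 5-FU res, 68.2 TPM in HCT116 OX res and 392.1 TPM in HCT116 WT, and 105, 221 and 323 TPM in SW480 5-FU res, OX res and WT. CDH1 (E-cadherin) averaged 3.64 TPM in HCT116 OX res and 29.02 TPM in HCT116 WT, and in SW480 3.12 TPM in 5-FU res, 3.03 TPM in OX res and 16.9 TPM in WT. The keratin KRT19 averaged 1523 TPM in HCT116 OX res and 1194 TPM in HCT116 WT, and the transcription factor CDX2 17.3 and 15.1 TPM in these groups. In SW480 5-FU res, OX res and WT, KRT19 averaged 444, 725 and 909 TPM and CDX2 5.66, 29.9 and 44.4 TPM. KRT18 averaged 3716 TPM in SW480 5-FU res and 3573 TPM in SW480 WT. In DLD-1, 10 markers reached 1 TPM, with 8 below WT and 2 above it in 5-FU res, and 5 and 5 in OX res. The 12 markers summed to 9493 to 10331 TPM in DLD-1 5-FU res, 19542 to 21103 TPM in its OX res and 9866 to 10190 TPM in its WT. The part of these genes in the members' changes was not tested.

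Transcript length moved with these changes. The members' longest annotated transcripts run from 1161 bases to 12480 bases (POLR1A), with UTP20 at 9031 bases and a median of 3023. Across the 38 members, which share the libraries, the Spearman correlation of length with the log2 fold change was 0.60 and 0.50 for 5-FU res and OX res of HCT116 and 0.39 and 0.68 for those of SW480, with longer members less lowered or higher. Over all genes with a length it was 0.41, 0.26, 0.19 and 0.41 in the same groups. In DLD-1 5-FU res and OX res it was -0.12 and 0.11 over the members. With the length trend of all genes removed from each library, 28 members were lower and 4 higher in HCT116 5-FU res, beside 37.9% and 35.2% of all genes. In HCT116 OX res 38 were lower, beside 38.3% of all genes lower and 39.8% higher. In SW480 5-FU res 38 were lower, beside 35.1% lower and 34.9% higher. In SW480 OX res 22 were lower and 2 higher, beside 32.7% and 31.1%. So the falls were as frequent in HCT116 and SW480 5-FU res, and fewer members were called in SW480 OX res.

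**Figure D5:**
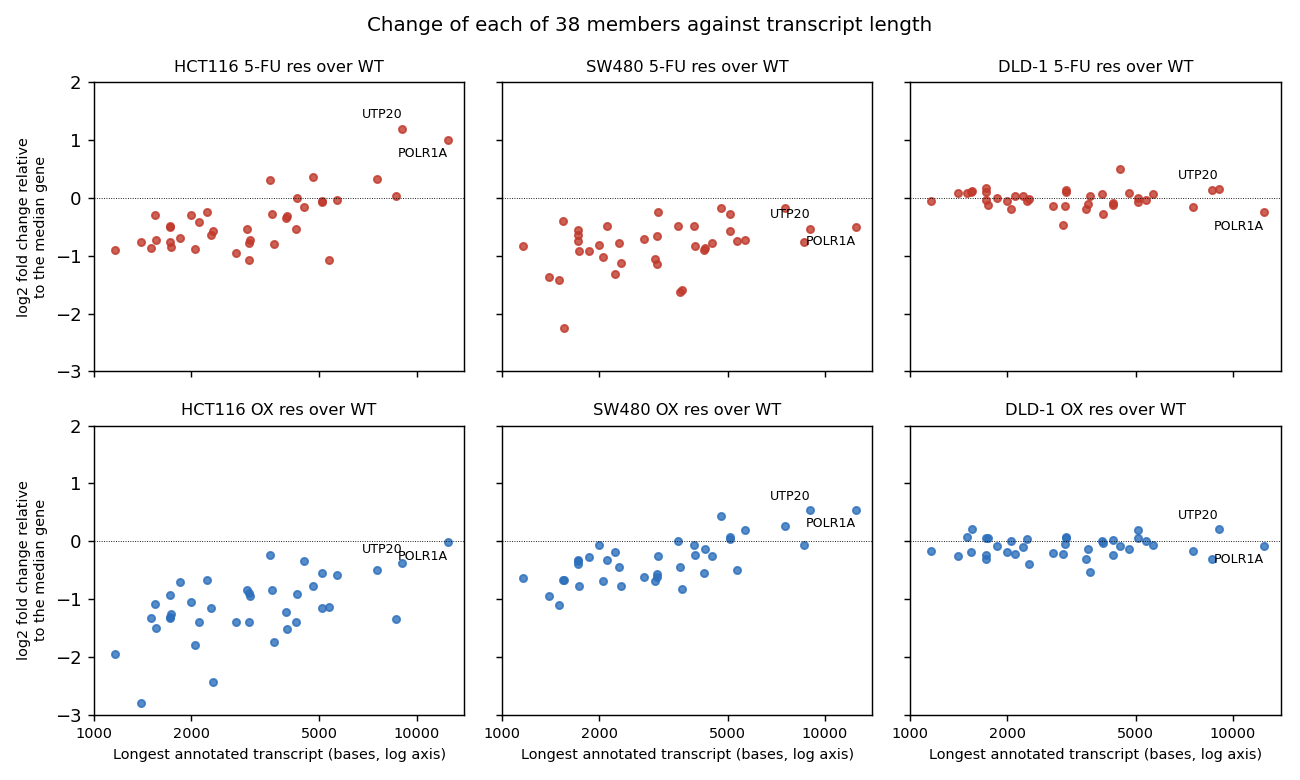
Log2 fold change relative to the median gene (y axis) against the longest annotated transcript in bases (x axis, log scale) for each of the 38 members (points), in 1 panel per comparison of resistant cells over WT, 5-FU res above and OX res below. The longest members POLR1A (12480 bases) and UTP20 (9031 bases) sit at or near the top of the HCT116 and SW480 OX res panels and of the HCT116 5-FU res panel.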

How the data were processed

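Stranded mRNA libraries were read as single reads of 100 bases with a DNBSEQ-G400. Reads were trimmed by the authors (Trimmomatic 0.38) and aligned to hg19 (TopHat2 2.1.1; the submitters' processing notes also name SAMtools 0.1.18 and Bowtie2 2.2.8). The deposited values are FPKM per gene symbol, from Cufflinks 2.2.1 in the methods and Cuffdiff 2.2.1 in those notes. FPKM were scaled to the same sum in every library (TPM), taken as log2(TPM + 1), and centred per library by the median deviation of the tested genes from their means. limma 3.58.1 in R 4.3.3 (lmFit, eBayes with trend, 2-sided) was fitted for each line over its 9 libraries, keeping genes that reached 1 TPM in 3 libraries or more (14010 genes in HCT116, 14039 in SW480, 13467 in DLD-1). The WT lines and the differences between lines were fitted over 27 libraries and 15801 genes. P-values were adjusted by Benjamini-Hochberg over all genes of a fit and called under 0.05. limma stood in for the Wilcoxon rank-sum test of the study's methods, which cannot reach that threshold with 3 libraries against 3. Python 3.11.15, pandas 2.3.3, numpy 2.4.6 and matplotlib 3.10.9 were used for tables and plots. Transcript lengths came from GENCODE v44 lifted to GRCh37 and promoters from RefSeq. The centring and limma steps were run on simulated libraries whose shifts were unrelated to group. With 100 genes changed by 0.5 and 100 by 1 on the log2 scale, 53 to 80 and 91 to 98 of them were recovered. Few genes were changed there, so these runs do not test the centring where the median gene moves with the group, as here.

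The members and lists were chosen with earlier results of these data known. Values in every library are given for members with the 2 largest called changes in any comparison with WT, those lower in all 6 or higher in at least 3, the 2 with the largest TPM range, and POLR1A, which was added after its values were seen, as was NOP16 for its promoter. The alternatives changed 1 choice at a time, namely the pseudocount (0.1), the filter (none, or a mean TPM of 5 or more), the scaling (no centring, FPKM, quantile normalization, median of ratios), the eBayes trend, a replicate block, the samples fitted, the trend on transcript length (lowess, span 0.3) and each library in turn.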

Additional observations from a re-analysis of the deposited data

Results flagged for a closer look

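The resistant over WT change of 5 members went in opposite directions in 2 lines, both called, with the difference itself called in limma over all 27 libraries. For 5-FU, POLR1A changed by 1.0 in HCT116 and -0.51 in SW480, a difference of 1.5 (adjusted p = 7e-09), and by -0.25 in DLD-1, a difference of 1.29 between HCT116 and DLD-1 (adjusted p = 7.7e-08). UTP20 changed by 1.20 in HCT116 and -0.53 in SW480, a difference of 1.72 (adjusted p = 4.3e-11). Without centring, the SW480 5-FU res falls of UTP20 (-0.09) and POLR1A (-0.07) were not called. RRP12 changed by -0.78 in SW480 and 0.50 in DLD-1, a difference of -1.23 (adjusted p = 8.5e-10). For OX, DDX21 changed by -0.77 in HCT116 and 0.44 in SW480, a difference of -1.14 (adjusted p = 1.3e-09), and LYAR by -1.5 in HCT116 and 0.22 in DLD-1, a difference of -1.63 (adjusted p = 5.7e-13). Changes are relative to the median gene of each fit, so the difference can depart slightly from the subtraction of the line values. No cause was tested, and POLR1A and UTP20 are among the longest transcripts of the set.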

How the results depend on the processing

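Of the members' counts under the alternatives, 691 stayed within 1.5 times the main count and 47 did not, and of the values of the 11 members named by the rule, 1250 kept direction and call, 47 lost the call, 18 gained one and 5 turned round. Where no value shows the cause, the cause was not tested. Counts that moved are given as lower or higher in the first group of each comparison. The shares of all genes with no filter, without the eBayes trend and with only the groups compared are not given, so those counts have no background beside them.

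Without centring, 8 members were higher in HCT116 5-FU res over WT, 3 higher in HCT116 OX res over WT, 1 higher in SW480 5-FU res over WT, 14 lower and 13 higher in SW480 OX res over WT, 2 higher in DLD-1 5-FU res over WT, and 5 lower and 10 higher in DLD-1 OX res over WT. For 5-FU res over OX res it gave 4 lower in HCT116 and 13 lower and 6 higher in DLD-1, and for SW480 WT over DLD-1 WT 14 lower and 15 higher. In the differences between lines it gave 1 above for 5-FU in SW480 over DLD-1, and for OX 2 above in HCT116 over DLD-1 and 10 below in SW480 over DLD-1. It also turned NOP14 in DLD-1 OX res to 0.0, RRP12 to 0.22 and UTP20 to 0.20 in HCT116 OX res, and RRP12 to 0.12 in OX res of SW480.

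With quantile normalization, 16 members were lower and 12 higher in HCT116 5-FU res over WT, where NOP14 turned to 0.01. The 5-FU change of HCT116 was then below that of SW480 for 2, and below that of DLD-1 for 17 and above it for 13, while the OX change of HCT116 was above that of DLD-1 for 1 and that of SW480 below it for 11. With no filter, in which genes near 0 also set the median, 1 member was higher in HCT116 OX res and 17 lower in SW480 OX res, 6 higher in DLD-1 OX res, 1 lower for 5-FU res over OX res in HCT116, 10 lower and 9 higher for the same in DLD-1, where the median turned to -0.041, 11 lower for SW480 WT over DLD-1 WT, and 1 above for the 5-FU change of SW480 and 1 for the OX change of HCT116 over DLD-1. With the length trend removed, 2 members were higher in SW480 OX res, 0 higher for 5-FU res over OX res in SW480, 3 lower for HCT116 WT over DLD-1 WT, 2 below for the 5-FU change of HCT116 over SW480 and 4 above for the OX change of SW480 over DLD-1. FPKM as deposited gave 3 lower for HCT116 WT over DLD-1 WT, eBayes without trend 0 higher for 5-FU res over OX res in SW480 (1 at an unadjusted p under 0.05), and only the groups compared 7 higher in DLD-1 5-FU res and 1 above for the OX change of HCT116 over DLD-1.

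With single libraries left out, between 0 and 1 members were higher in SW480 5-FU res over OX res (0 without replicate 1 or 3 of either group), and between 5 and 9 were lower in DLD-1 5-FU res over WT. Replicate numbers did not pair the libraries: of 9 pairs of groups, 0 had all 3 correlations of same-numbered libraries over 0.1, with a range of -0.196 to 0.222. With the replicate block, the counts lower and higher were 27 and 5 for 5-FU res and 37 and 0 for OX res of HCT116, 36 and 0 for 5-FU res and 26 and 5 for OX res of SW480, and 8 and 4 for 5-FU res and 15 and 3 for OX res of DLD-1. The number of reads is unknown, so depth gives no limit of its own.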
